A study of Mus musculus with 6 samples.

Results

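The genes described here drive DNA replication and mitosis, and were followed in EGFP-positive cells of mouse embryos that lack Pax2 or carry 1 working copy of it. They were listed as 40 symbols, 18 genes of S phase, 19 of mitosis and the 3 D-type cyclins of G1. A member was measured where the platform annotation gave a probe set exactly 1 of these symbols. This held for 39 of the 40 symbols, with 97 probe sets, out of 18193 genes and 34945 probe sets in all, and Ccnb1 is not analysed here. The rule used gene names and no measured value.

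RNA came from 3 Pax2 null and 3 Pax2 heterozygote samples, all at E11.5. Titles give EGFP/EGFP for null and EGFP/+ for heterozygote samples, so all sorted cells carried at least 1 EGFP allele, and no wild-type sample is among the 6. Cells were dissociated from the region of the intermediate mesoderm, the source of kidneys and gonads, and sorted for EGFP fluorescence. Fluorescence in null cells marks cells in which the locus is active and not a cell type, and no label says whether embryos were pooled or came from separate litters, so a p-value here reflects the scatter of these arrays, part or all of which may be technical.

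Proliferating cells copy their genome in S phase and divide it in mitosis. D-type cyclins with Cdk4 or Cdk6 inactivate the Rb family in G1, which releases E2F transcription factors to switch on genes for replication origins, forks and nucleotide supply. Genes of G2 and mitosis follow later, through the DREAM and MuvB-Myb-FoxM1 complexes, which bind the CHR element (TTTGAA) of their promoters, often beside CCAAT boxes bound by NF-Y. In the developing kidney, the tips of the ureteric bud and the surrounding progenitors divide rapidly while the organ takes shape.

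The promoters of the S-phase and mitotic genes held these elements in different numbers, and the choice of members did not use them. RefSeq windows of 300 bases (250 before and 50 after the start, GRCm38.p6, the first window listed for a gene) were found for 14 of 18 S-phase genes, 14 of 18 mitotic genes and 1 D cyclin. On either strand, TTTGAA lay in 11 of the 14 mitotic windows and 1 of the 14 S-phase windows, against 18.1% of all 27025 genes with a window. CCAAT lay in 12 mitotic and 9 S-phase windows, against 37.9%, and all 11 mitotic windows with TTTGAA also held CCAAT, against 7.12% of all genes. An E2F form (TTTCCCGC, TTTCGCGC, TTTGCCGC or TTTGGCGC) lay in 1 mitotic window, that of Cdk1, and in 7 S-phase windows, against 2.32%. A match is a description of letters and not a bound site.

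Windows of 4 members are shown, from 200 bases before to 30 after the start, chosen because they hold these motif forms and not for a measured value. Capitals mark the searched motifs on either strand, and sequences run 5′ to 3′ on the strand of the gene. Mcm5 and Mcm6 encode subunits of the replicative helicase. Their windows lie at chr8:75109309-75109538 on the plus strand and chr1:128359676-128359905 on the minus strand. Each holds overlapping E2F forms, 153 and 149 bases before the start in Mcm5 and 110 and 106 bases before it in Mcm6. A further form lies 47 bases before the start in Mcm6.
Mcm5: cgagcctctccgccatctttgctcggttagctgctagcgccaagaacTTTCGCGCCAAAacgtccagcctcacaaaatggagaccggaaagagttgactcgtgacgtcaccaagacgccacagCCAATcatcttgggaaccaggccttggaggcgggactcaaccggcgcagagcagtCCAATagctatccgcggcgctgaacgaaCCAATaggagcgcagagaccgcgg
Mcm6: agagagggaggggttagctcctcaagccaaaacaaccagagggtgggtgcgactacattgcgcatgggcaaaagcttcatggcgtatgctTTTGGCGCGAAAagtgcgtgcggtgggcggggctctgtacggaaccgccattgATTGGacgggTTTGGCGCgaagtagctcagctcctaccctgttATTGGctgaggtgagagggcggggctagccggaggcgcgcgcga

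Cdk1, the kinase that starts mitosis, and Ccnb2, a cyclin that activates it, represent the mitotic set. Their windows lie at chr10:69352883-69353112 and chr9:70421525-70421754, both on the minus strand. TTTGAA begins 71 and 15 bases before the start in Cdk1. In Ccnb2, 3 CCAAT boxes stand 87, 54 and 21 bases before the start. TTTGAA lies 167 bases before the start and again at position 5 after it.
Cdk1: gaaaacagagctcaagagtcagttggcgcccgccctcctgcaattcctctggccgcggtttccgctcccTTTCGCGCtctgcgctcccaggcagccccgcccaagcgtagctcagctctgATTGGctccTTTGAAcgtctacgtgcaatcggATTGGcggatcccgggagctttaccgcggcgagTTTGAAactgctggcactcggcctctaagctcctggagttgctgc
Ccnb2: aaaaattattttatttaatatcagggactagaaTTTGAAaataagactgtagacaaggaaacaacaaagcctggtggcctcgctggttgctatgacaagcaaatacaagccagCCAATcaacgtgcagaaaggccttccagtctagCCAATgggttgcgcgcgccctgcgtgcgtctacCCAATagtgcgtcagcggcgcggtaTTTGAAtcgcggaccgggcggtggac

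Each array gave 1 log2 value per probe set, processed by RMA, and array medians lay between 6.18 and 6.24 in null samples and between 6.12 and 6.23 in heterozygote samples. Each gene is represented by 1 probe set, the brightest on average. In limma's moderated test across 18193 genes, 253 genes changed between genotypes (adjusted p under 0.05, Benjamini-Hochberg), or 1.39%, with 147 higher (0.808%) and 106 lower (0.583%) in null. That count was 86 without null 1, 110 without null 2, 98 without heterozygote 2 and 84 without heterozygote 3. The 16 probe sets for bacterial hybridization controls joined the arrays into 3 pairs, each with 1 array of each genotype: null 3 with heterozygote 1 (pair 1), null 1 with heterozygote 2 (pair 2) and null 2 with heterozygote 3 (pair 3). The labels give no such pairs. Mean bioB control values were 10.55 (null) and 10.52 (heterozygote) in pair 1, 8.20 (null) and 7.81 (heterozygote) in pair 2, and 7.23 (null) and 7.24 (heterozygote) in pair 3, and a fit with pairs as blocks called 830 genes. The difference between 3′ and 5′ Gapdh control probe sets, a sign of RNA integrity, was 0.55 to 0.78 in null and 0.63 to 0.68 in heterozygote arrays.

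No difference between null and heterozygote cells was detected in single replication or mitosis genes. None of the 18 S-phase genes, the 18 mitotic genes or the 3 D cyclins passed the test in limma, and the smallest adjusted p was 0.372, for Ccnd3. At an unadjusted p under 0.05, 1 of the 39 passed (Ccnd3), against 9.73% of all genes. On the probe set that represents each gene, every member's change was smaller than 0.5 on the log2 scale, as were 89.1% of changes over all genes. Among single probe sets of members the largest change in size was -0.59, on a dim probe set of Cenpf. The 95% interval of the change lay within 2-fold in either direction for 38 of the 39 members, the exception being Cenpf, and within 1.5-fold for 23 of them, against 84.2% and 42.4% of all genes. All 39 had a mean above the 33rd percentile of probe sets (4.81), below which differences are compressed, and the median standard error (SE) was 0.17 for members and 0.20 for all genes. None of the 97 probe sets passed when tested singly, where 1.07% of 34945 passed, and the smallest adjusted p was 0.311, for a probe set of Cenpf. Of the 30 members with more than 1 probe set, 19 had changes of 1 sign on all of them. With the pair as a block no member passed either, against 4.56% of all genes, and the smallest adjusted p was 0.131, again for Ccnd3.

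**Figure D1:**
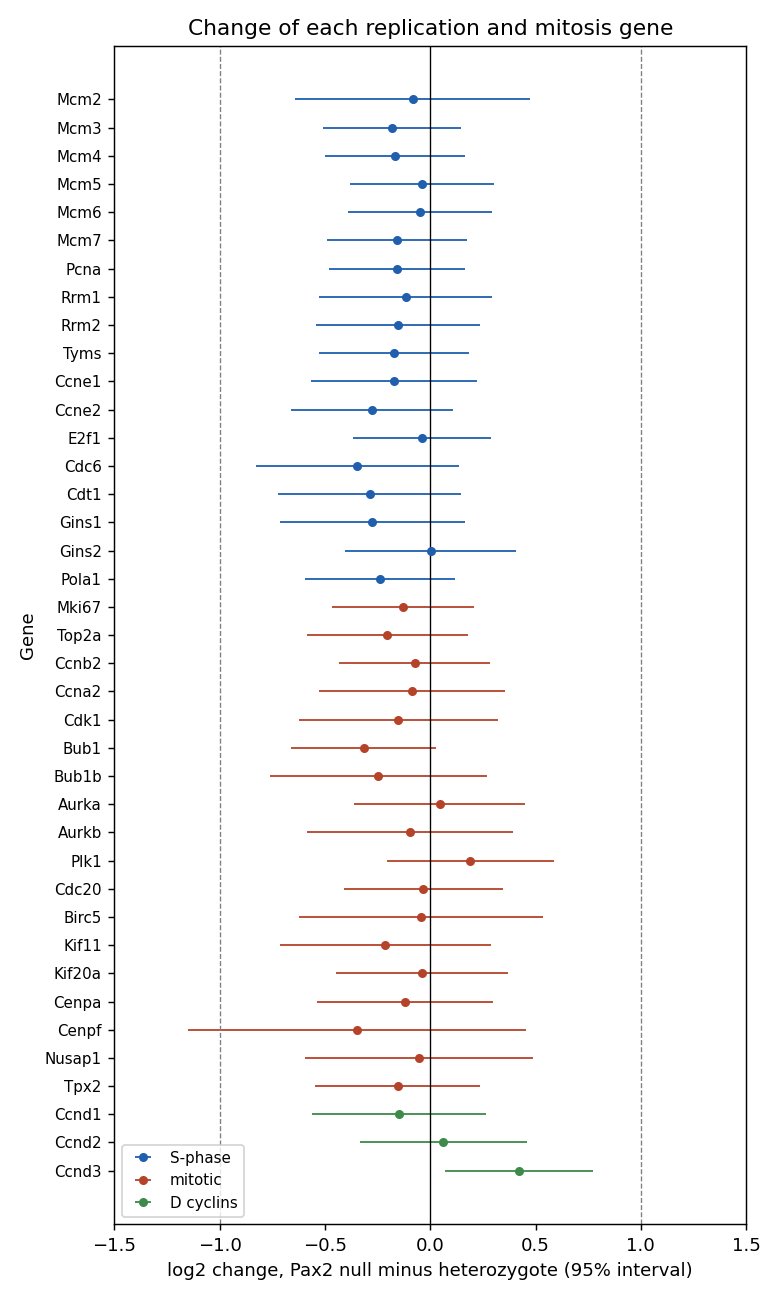
Points give the log2 change of each of the 39 measured members (Pax2 null minus heterozygote, x axis) and bars its 95% interval from limma, with S-phase genes on top, mitotic genes below them and D cyclins last. Dashed lines mark a 2-fold change, which only the interval of Cenpf crosses, and only the interval of Ccnd3 leaves out 0.

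Although no member passed, most S-phase values were slightly lower in null. Of 18 S-phase genes, 17 had a negative change, with a median of -0.16, or 0.894-fold, and of 18 mitotic genes 16 had a negative change, with a median of -0.11, or 0.927-fold. Over all genes 53.6% of changes were negative and the median was -0.019. Members were measured on the same arrays and are known to be co-regulated, so their signs are not independent observations. The spread of the set's median between arrays of a genotype was 0.08 for S-phase and 0.05 for mitotic genes (SD). It describes single arrays and is not the error of a median change between genotypes, which was not tested. Within pairs 1, 2 and 3, the S-phase median was -0.17, -0.19 and -0.075, with 17, 17 and 13 genes negative, and the mitotic median was -0.17, -0.17 and -0.060, with 17, 15 and 10 genes negative. A negative difference in all 3 pairs was found in 11 of 18 S-phase genes (61.1%), 9 of 18 mitotic genes and 20 of all 39 members (51.3%), against 23.5% of all genes. The medians over all genes in these pairs were -0.060, -0.012 and 0.030. Without heterozygote 3 the mitotic median was -0.16.

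Summed over the S-phase set on a linear scale, the signal was 26336, 27653 and 28419 in null 1 to 3, against 31496, 30502 and 29002 in heterozygote 1 to 3. The null and heterozygote sums did not overlap, although the highest null and the lowest heterozygote sum were close. Bright genes weigh most in such a sum. The set's median deviation from each gene's mean was -0.15, -0.10 and 0.028 in null 1 to 3. In heterozygote 1 to 3 it was 0.14, 0.10 and 0.022, so on this measure null 3 lay above heterozygote 3 and the groups overlapped. The mitotic sum was 21453, 22416 and 21526 in null 1 to 3, against 23961, 24133 and 22372 in heterozygote 1 to 3. There null 2 lay above heterozygote 3, so the groups overlapped. The mitotic median deviations were -0.074, -0.033 and -0.024 in null 1 to 3, against 0.091, 0.093 and -0.014 in heterozygote 1 to 3. Only the narrow gap between null 3 and heterozygote 3 separated these. In such sorted bulk samples, fewer dividing cells and less RNA per dividing cell cannot be told apart.

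**Figure D2:**
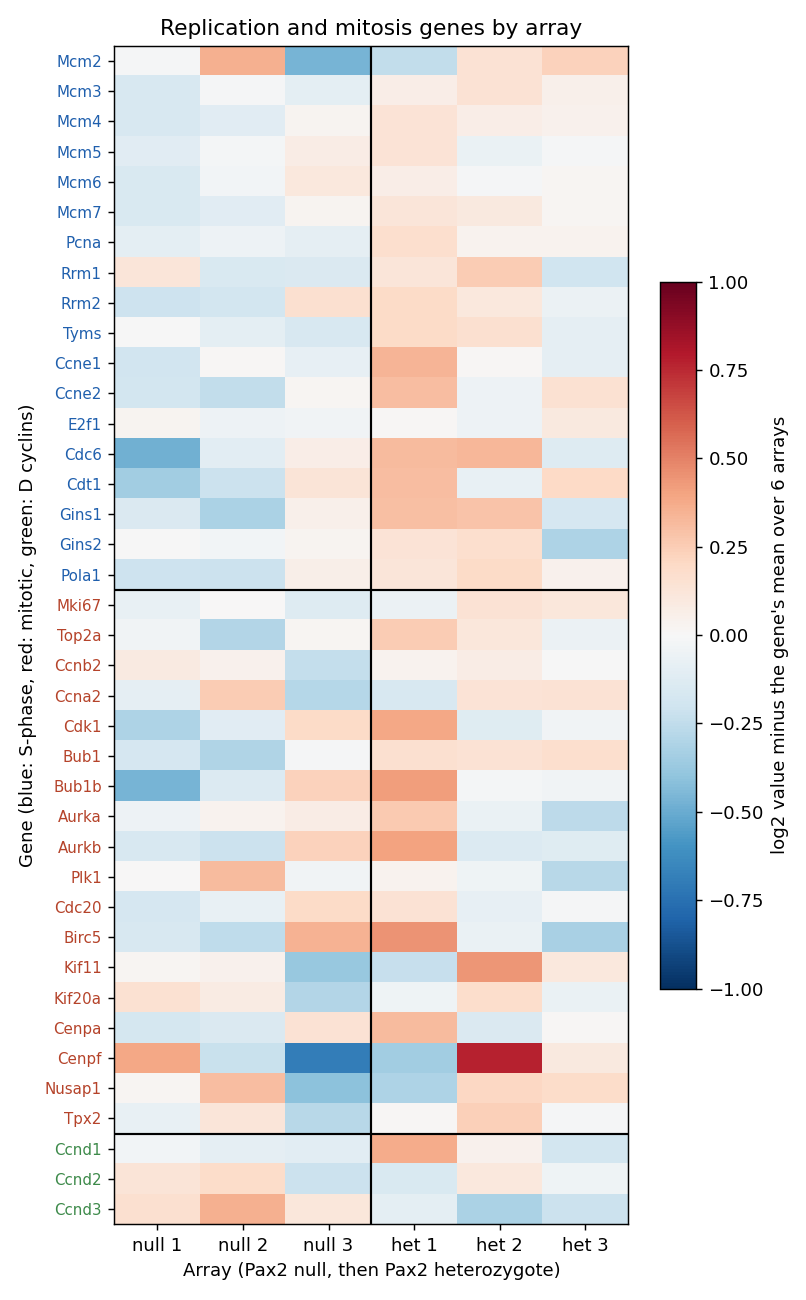
Colour gives the log2 value of each member (rows) on each array (columns, 3 Pax2 null arrays left of 3 heterozygote arrays) minus the gene's mean over the 6 arrays. Most S-phase rows are bluer in null 1 and null 2 (median deviations -0.15 and -0.10) but not in null 3 (0.028). Birc5, Bub1b and Aurkb are highest in null 3 and heterozygote 1, and Cenpf and Kif11 are lowest there.

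The MCM2-7 ring unwinds DNA at the replication fork. On their brightest probe sets all 6 of its subunits had a change near 0, between -0.18 and -0.037. Over their other probe sets changes ran from -0.24 to 0.055, both of Mcm3. Mcm3 had values of 10.98, 11.13 and 11.04 in null 1 to 3, against 11.21, 11.28 and 11.19 in heterozygote 1 to 3. Its groups did not overlap, and the change was -0.18 ± 0.14 (SE; limma, adjusted p = 0.881), with 4 of its 5 probe sets of that sign. Mcm4 had 10.25, 10.31 and 10.44 in null and 10.55, 10.49 and 10.46 in heterozygote samples, groups that were separated by the narrow gap between null 3 and heterozygote 3 (-0.17 ± 0.14, limma, adjusted p = 0.906). Pcna, the sliding clamp of the replicative polymerases, had 11.83, 11.87 and 11.84 in null, against 12.09, 11.96 and 11.96 in heterozygote samples. The Pcna groups did not overlap, with a change of -0.16 ± 0.14 (limma, adjusted p = 0.914). Mcm3, Mcm4 and Pcna were the only S-phase genes with separate groups, 3 of 18 beside 7.16% of all genes that were lower in null without overlap. Of the MCM genes Mcm2 varied most between arrays, with 11.15, 11.51 and 10.69 in null and 10.91, 11.30 and 11.39 in heterozygote samples. Its lowest values were those of pair 1, and its change of -0.084 ± 0.24 had the opposite sign without null 3 (0.13) or heterozygote 3 (0.011).

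On the brightest probe sets, the largest negative S-phase changes belonged to the loading factors. Cdc6 and Cdt1 bring the MCM ring to origins before S phase. Cdc6 had 8.49, 8.86 and 9.04 in null 1 to 3, against 9.29, 9.30 and 8.84 in heterozygote 1 to 3. Null 1 was low and heterozygote 3 lay among the null values, so the groups overlapped (-0.35 ± 0.21, 95% interval -0.83 to 0.14, limma, adjusted p = 0.757). Cdt1 had 10.70, 10.84 and 11.18 in null, against 11.36, 10.98 and 11.25 in heterozygote samples. Here only null 3 reached into the heterozygote range, and the change was -0.29 ± 0.19 (limma, adjusted p = 0.806). Gins1 and Gins2 encode subunits of the GINS complex, which joins the MCM ring to form the active helicase, and their changes were -0.28 ± 0.19 for Gins1 and 0.0023 ± 0.18 for Gins2. Pola1, the catalytic subunit of the polymerase that primes each strand, had a change of -0.24 ± 0.15 (limma, adjusted p = 0.797), though only 1 of its 2 probe sets had this sign and the other lay under the 33rd percentile.

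On their brightest probe sets, genes of nucleotide supply and of the G1/S switch lay in the same narrow range. Rrm1 and Rrm2 form ribonucleotide reductase and Tyms makes thymidylate, and their changes were -0.12 ± 0.18, -0.16 ± 0.17 and -0.17 ± 0.15 in that order. All 3 probe sets of Rrm2 had a negative change, and the dimmest had -0.34 ± 0.17 (limma on single probe sets, adjusted p = 0.719). Ccne1 and Ccne2 encode the E cyclins that activate Cdk2 at S-phase entry. Ccne2 had 7.51, 7.45 and 7.71 in null, against 8.004, 7.65 and 7.85 in heterozygote samples, with null 3 above heterozygote 2 (-0.28 ± 0.17, limma, adjusted p = 0.753). Its sister Ccne1 was highest in heterozygote 1 (9.98) and otherwise between 9.44 and 9.65 in both genotypes. E2f1, an activator of the S-phase genes, was nearly constant, with 8.15, 8.07 and 8.09 in null and 8.14, 8.07 and 8.23 in heterozygote samples. The 95% interval of its change ran from -0.37 to 0.29.

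Among mitotic genes, the common markers of dividing cells had overlapping values in the genotypes. Mki67, which coats mitotic chromosomes, had 11.24, 11.32 and 11.19 in null 1 to 3, against 11.26, 11.45 and 11.42 in heterozygote 1 to 3. The groups overlapped, and the interval of the change, -0.47 to 0.21 around -0.13, left out a fall of 1.5-fold (limma, adjusted p = 0.965). Top2a, the topoisomerase that untangles sister chromatids, had 10.71, 10.45 and 10.76 in null, against 11.00, 10.85 and 10.68 in heterozygote samples (-0.20 ± 0.17, limma, adjusted p = 0.895). Of its 3 probe sets 2 had this sign, 1 of these under the 33rd percentile, and the other (0.25) lay above that percentile. Cdk1 and its partner cyclins had changes of -0.15 ± 0.20 for Cdk1, -0.086 ± 0.19 for Ccna2 and -0.073 ± 0.16 for Ccnb2. In Cdk1, the values were 9.88, 10.07 and 10.38 in null and 10.57, 10.07 and 10.15 in heterozygote samples, highest in both arrays of pair 1.

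The kinetochore kinase gene Bub1 had the smallest p of the mitotic set. Bub1 had 9.27, 9.14 and 9.43 in null 1 to 3, against 9.60, 9.58 and 9.61 in heterozygote 1 to 3. The heterozygote values were almost equal and all null values lay below them, with a change of -0.32 ± 0.15, or 0.803-fold (95% interval 0.633 to 1.02, limma, adjusted p = 0.581). It was the only mitotic gene with separate groups, 1 of 18 beside 7.16% of all genes. Bub1b, which encodes the checkpoint protein BubR1, had a change of -0.25 ± 0.22. The checkpoint's target Cdc20, the activator of the anaphase-promoting complex, had one of -0.033 ± 0.16.

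The Aurora and Polo kinases showed no shared direction. Aurka and its activator Tpx2 act at spindle poles, and their changes were 0.045 ± 0.18 for Aurka and -0.16 ± 0.17 for Tpx2. Aurkb and Birc5, partners in the chromosomal passenger complex, had changes of -0.096 ± 0.21 and -0.044 ± 0.25. Plk1, a kinase needed at several steps of mitosis, had the largest positive mitotic change, with 9.52, 9.83 and 9.47 in null and 9.55, 9.47 and 9.23 in heterozygote samples. Null 2 was high and heterozygote 3 low, and these arrays form pair 3 (0.19 ± 0.17, limma, adjusted p = 0.916). The spindle motors Kif11 (-0.21 ± 0.22) and Kif20a (-0.041 ± 0.18), the microtubule binder Nusap1 (-0.055 ± 0.23) and the centromeric histone gene Cenpa (-0.12 ± 0.18) also overlapped between genotypes.

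Cenpf, which encodes a large kinetochore protein, was the least precisely measured member. It had 9.92, 9.31 and 8.84 in null 1 to 3, against 10.29, 9.63 and 9.18 in heterozygote 2, 3 and 1, the arrays paired with them. Within each pair null was lower, with differences of -0.38, -0.32 and -0.35 in pairs 2, 3 and 1, while pair means ranged over 1.10. The interval of the change without the block ran from -1.15 to 0.45 (-0.35 ± 0.35, limma, adjusted p = 0.939). Without heterozygote 2 the change was -0.052 and without null 1 it was -0.63, and with the pair as a block the adjusted p was 0.137. All 3 of its probe sets had a negative change, 1 of them under the 33rd percentile. On the second brightest, the values were 9.21, 9.13 and 9.20 in null 1 to 3, against 9.57, 9.62 and 9.75 in heterozygote 1 to 3, and this is the probe set with the smallest adjusted p given above. Its groups did not overlap and its values did not follow the pairs, so the probe sets of Cenpf shared the direction but not the scatter.

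The members also varied between array pairs. The range of the 3 pair means was larger than the genotype change in 28 of 39 members, or 71.8%, among them 16 of 18 mitotic genes, 10 of 18 S-phase genes and 2 of 3 D cyclins, against 80.1% of all genes. A range over 3 means of 2 arrays tends to exceed a difference between 2 means of 3 arrays by its construction, so the count is read only beside that share. Its median was 0.21 for S-phase genes, 0.36 for mitotic genes and 0.39 over all genes. Birc5, an inhibitor of apoptosis with a role in cell division, had 10.29, 10.20 and 10.80 in null 1 to 3, against 10.91, 10.39 and 10.13 in heterozygote 1 to 3, so that the 2 highest values were those of pair 1. The 2 arrays of pair 1 lay above the other 4 in 10 members (Birc5, Cdk1, Bub1b, Aurka, Aurkb, Cdc20, Cenpa, Mcm5, Mcm6 and Rrm2) and below the other 4 in 6 (Mcm2, Ccna2, Kif11, Cenpf, Nusap1 and Ccnd2). Over all genes these shares were 24.0% and 15.1%, close to those of the members. Mitotic genes thus lay on both sides in pair 1. Whether the pairs differ by embryo, day or hybridization cannot be read from the labels and was not tested.

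**Figure D3:**
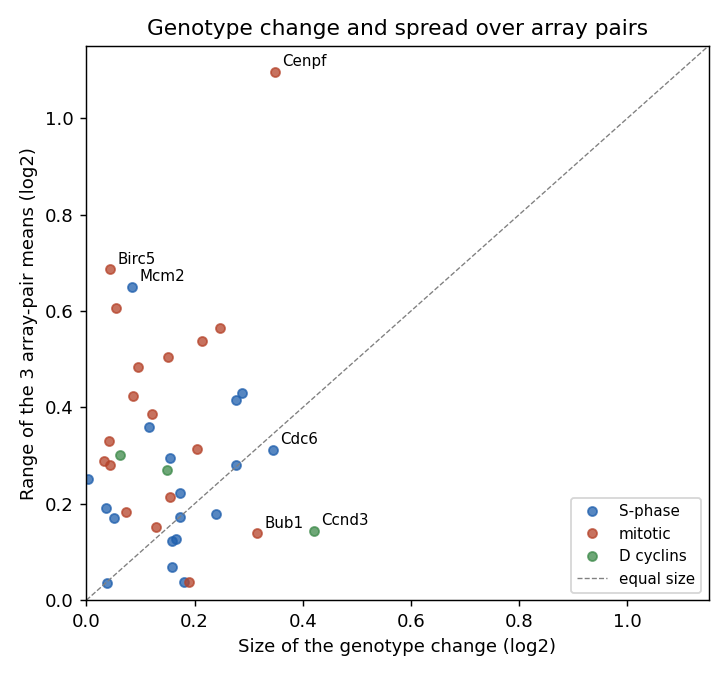
Each point is a member, with the size of its genotype change on the x axis and the range of its 3 array-pair means on the y axis (both log2). Points above the dashed line of equal size, 28 of 39, have a pair range larger than the genotype change, as do 80.1% of all genes, and Cenpf (1.10) and Birc5 (0.69) reach highest, whereas Ccnd3 and Bub1 lie below it.

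The 3 D cyclins, which link growth signals to the cell cycle, had changes of both signs. Ccnd3 had 10.63, 10.82 and 10.58 in null 1 to 3, against 10.37, 10.15 and 10.25 in heterozygote 1 to 3. Its groups did not overlap and it was higher in null in all 3 pairs, by 0.22, 0.48 and 0.57. The change was 0.42 ± 0.15, or 1.34-fold (95% interval 1.05 to 1.71), at an unadjusted p of 0.0248 and an adjusted p of 0.372 in limma. It was the only member higher in null without overlap, beside 6.49% of all genes, and 2 of its 3 probe sets had this sign. Ccnd1 had 10.63, 10.56 and 10.55 in null, against 11.02, 10.70 and 10.47 in heterozygote samples, with only heterozygote 1 clearly above the rest (-0.15 ± 0.18, limma, adjusted p = 0.969). For Ccnd2 the values were 11.22, 11.27 and 10.87 in null and 10.93, 11.19 and 11.05 in heterozygote samples, lowest in pair 1 (0.062 ± 0.17, limma, adjusted p = 0.992). The difference between the D cyclins was not tested.

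Other genes of the cell cycle were read from 6 further lists, none of whose 123 measured genes passed in limma. At an unadjusted p under 0.05, 9 of the 123 passed, or 7.32%, against 9.73% of all genes. With the pair as a block, Myc passed as lower and Mycl as higher. Of 38 further replication genes, 33 had a negative change, with a median of -0.17, and the 4 with the smallest p were Cdc7 (-0.48 ± 0.23), the kinase that fires origins, the origin recognition gene Orc4 (-0.40 ± 0.21), the primase gene Prim2 (-0.39 ± 0.22) and the histone mRNA binder Slbp (-0.28 ± 0.16). Of 41 further mitosis genes, 31 had a negative change, with a median of -0.14. There the centromere gene Cenpk (-0.55 ± 0.17, limma, adjusted p = 0.258), the spindle gene Dlgap5 (-0.50 ± 0.18), the chromokinesin Kif4 (-0.39 ± 0.17) and the condensin gene Ncapg (-0.33 ± 0.15) were lower in null without overlap, as were 5 of the 41 in all, beside 7.16% of all genes. Checkpoint and CDK-switch genes had a median of -0.13, with 12 of 15 negative, led by Chek2 (-0.47 ± 0.19), Fbxo5 (-0.33 ± 0.15), Atm (-0.42 ± 0.21) and Atr (-0.46 ± 0.23).

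In the list of CDK kinases and inhibitors, 10 of 11 changes were positive and the median was 0.22, with 0 passing in limma. At an unadjusted p under 0.05, 4 of the 11 passed, or 36.4%, against 9.73% of all genes, and 5 of the 11 were higher in null without overlap, beside 6.49% of all genes. The difference between this list and the others was not tested. Cdkn2b, which encodes the Cdk4 and Cdk6 inhibitor p15, had 5.97, 4.69 and 6.03 in null 1 to 3, against 4.12, 4.08 and 4.28 in heterozygote 1 to 3. The groups did not overlap, but null 2 was close to the heterozygote values, and these lay under the 33rd percentile. The change was 1.40 ± 0.34 (limma, adjusted p = 0.126), and without null 2 it was 1.84 and passed (adjusted p = 0.0168). The related inhibitors Cdkn2c (0.43 ± 0.18) and Cdkn2d (0.43 ± 0.17) and the kinase gene Cdk6 (0.50 ± 0.16, limma, adjusted p = 0.253) were also higher in null without overlap and did not pass. Among 15 Rb and E2F regulators, 4 had a positive change and the median was -0.095. E2f8, a repressor induced in S phase, had 8.81, 8.81 and 9.00 in null, against 9.30, 9.65 and 9.49 in heterozygote samples. All null values were lower (-0.60 ± 0.16, limma, adjusted p = 0.160, and 0.0840 with the block). Rb1 (-0.47 ± 0.27), E2f7 (0.48 ± 0.30) and Lin54 (-0.51 ± 0.35) were the next by p.

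Of the Myc family, which promotes growth and S-phase entry, Myc had 10.47, 10.59 and 9.99 in null 1 to 3, against 10.89, 11.45 and 11.55 in heterozygote 1 to 3. The groups did not overlap, and pair 1 held the lowest array of each genotype. The change was -0.94 ± 0.24 (limma, adjusted p = 0.139), and with the pair as a block it passed (adjusted p = 0.0112). Mycl had 8.56, 8.95 and 9.80 in null and 9.16, 7.78 and 8.05 in heterozygote samples, which overlapped, and it passed with the block (0.77 ± 0.42, limma, adjusted p = 0.689, and 0.0239 with the block). Mycn had a change of -0.26 ± 0.28.

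**Figure D4:**
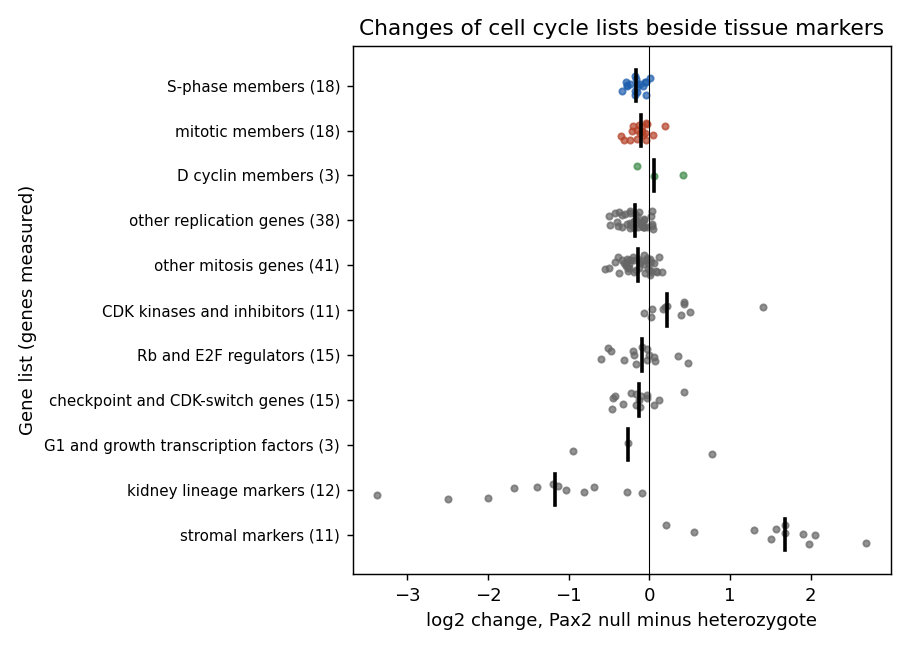
Points are log2 changes of single genes (Pax2 null minus heterozygote, x axis) by list, and black bars are medians. The S-phase (median -0.16) and mitotic (-0.11) genes cluster near 0, while kidney lineage markers (-1.16) and stromal markers (1.68) spread widely.

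The median changes of kidney lineage markers (-1.16) and stromal markers (1.68) were larger in size than the change of any member. All 12 kidney lineage markers had a negative change, with 6 that fell (Eya1, Sall1, Gdnf, Lhx1, Ret and Gata3), and their summed linear signal was 6380 to 8471 in null and 11453 to 16198 in heterozygote samples. All 12 had a mean above the 33rd percentile, so markers of the labelled tissue were present. Gdnf, the ligand that draws out the ureteric bud, had 6.69, 6.35 and 6.55 in null, against 8.53, 8.38 and 8.69 in heterozygote samples. All 11 stromal markers had a positive change, with 6 that rose (Tbx18, Pdgfrb, Postn, Col1a2, Dcn and Lum), and with sums of 13296 to 15500 in null and 4924 to 7105 in heterozygote samples. Macrophage and leukocyte markers were positive in 11 of 12 with 0 passing in limma (7 at an unadjusted p under 0.05), with sums of 1479 to 3561 in null against 724 to 1404, and gonad markers in 7 of 7, with Hsd3b1 passing, with sums of 1328 to 1803 in null against 665 to 771. Neuronal markers were positive in 7 of 9, with Stmn2 and Map2 passing as higher and Elavl4 as lower, and with sums of 2383 to 3502 in null against 1574 to 2444, and endothelial markers in 4 of 8, with 0 passing in limma (0 also at an unadjusted p under 0.05) and sums of 491 to 628 in null against 448 to 605. Erythroid markers were positive in 2 of 5 with 0 passing in limma (1 at an unadjusted p under 0.05) and a median of -0.18, with sums of 1283 to 1434 in null against 1574 to 1890. Over all genes, 0.583% passed as lower, 0.808% as higher and 9.73% at an unadjusted p under 0.05, and 53.6% of changes were negative. Means lay under the 33rd percentile for 3 macrophage, 4 endothelial and 1 erythroid marker and for none of the neuronal or gonad markers. Genes of quiescence and of acute stress, the latter a response to dissociation, had a median of 0.0086, with 8 of 15 positive. Their changes ran from -1.01 to 0.45, with sums of 7699 to 10747 in null against 8645 to 10569. Within pairs 1, 2 and 3 their medians were 0.19, 0.067 and -0.20, with 4, 6 and 12 genes negative. The part of these differences in the small negative medians of the replication and mitosis genes was not tested.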

How the data were processed

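RNA of 6 sorted samples was amplified with a NuGEN kit from 10 ng of total RNA and hybridized to Affymetrix arrays. The authors deposited log2 values, 1 per probe set and array. The submitters' processing notes name affy, RMA and limma but no version. Settings and genome build are, beyond this, not given in the sources used here. RMA equalizes distributions between arrays, which hides differences in total RNA per cell, and compresses differences where signal is dim. Precision is limited by the number of arrays.

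Probe sets were named from the platform annotation. Each gene took the probe set whose mean over the 6 arrays was highest. The genotypes were compared with limma 3.58.1 (R 4.3.3; lmFit, eBayes, two-sided, no covariates), adjusted by Benjamini-Hochberg over 18193 genes at 0.05. Intervals are 95% intervals of the moderated fit. The fit was run on simulated data, but detection of changes as small as those of the members was not tested. Array pairs are the closest of 15 possible matchings by 16 hybridization control probe sets (summed distance 1.95, the next 5.05). Members were all eligible to be named, as were passing genes and up to 4 genes with the smallest p of each other list. Members, lists and tests were chosen with earlier results of these data known. Arrays of the same genotype correlated between 0.976 and 0.991, so none was a copy. The alternatives were median centring, a renewed quantile normalization, a trended prior, array weights, removal of probe sets under the 33rd percentile, mean or single probe sets, the pair block, thresholds of 0.01 and 0.10, and omission of arrays. Omission of pairs was chosen after seeing the data. Pax2 itself is not analysed here, so genotype labels were not checked against it.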

Additional observations from a re-analysis of the deposited data

How the results depend on the processing

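No S-phase gene, mitotic gene or D cyclin passed in limma under any alternative run. The count over all genes was 253. It was 51 at a threshold of 0.01, 405 at 0.10, 553 with array weights and 830 with the pair block, 84 to 318 with 1 array left out, 251 without pair 1, 1 without pair 2 and 2 without pair 3, where 2 arrays a genotype remain. From the 6 further cell cycle lists 2 genes passed with array weights (Myc and E2f8), 2 with the pair block (Myc and Mycl), 1 with the mean over probe sets (Mycl), and 0 to 1 with 1 array left out (Cdkn2b). The S-phase median of -0.16 was -0.21 to -0.13 with 1 array left out and -0.075 within pair 3. The mitotic median of -0.11 was -0.16 to -0.078 with 1 array left out, and -0.17, -0.17 and -0.060 within pairs 1, 2 and 3. Of 507 values of single members under the alternatives, 31 in 17 members changed sign, the largest of them 0.17. Gins2 (0.0023) was -0.028 with median centring and -0.056 with the mean over probe sets, where Pola1 was 0.043, and with array weights Birc5 was 0.036 and Kif20a 0.022. With 1 array left out, 111 of 234 member values, in 30 of 39 members, moved by over 1.5 times or changed sign. Those that kept their sign included Cenpf (-0.63 to -0.052), Kif11 (-0.38 to -0.044), Bub1b (-0.42 to -0.076), Ccne1 (-0.26 to -0.045), Ccnd1 (-0.28 to -0.0033), Rrm1 (-0.24 to -0.020), Cdc6 (-0.50 to -0.19) and Cdt1 (-0.42 to -0.19). The changes that crossed 0 were those of Mcm2 (-0.28 to 0.13), Mcm5 (-0.084 to 0.021), Mcm6 (-0.12 to 0.013), E2f1 (-0.074 to 0.0016), Gins2 (-0.15 to 0.088), Ccnb2 (-0.14 to 0.027), Ccna2 (-0.23 to 0.037), Cdk1 (-0.29 to 0.0024), Aurka (-0.075 to 0.19), Aurkb (-0.24 to 0.081), Cdc20 (-0.14 to 0.041), Birc5 (-0.23 to 0.17), Kif20a (-0.13 to 0.095), Cenpa (-0.22 to 0.0052), Nusap1 (-0.22 to 0.14) and Ccnd2 (-0.014 to 0.19). The cause of these shifts was not tested. The pair block rests on control probe sets, since the labels give no pairs. With 3 arrays a genotype, changes as small as those of the members may go undetected, and no limit of detection was computed.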
